A study of Drosophila melanogaster with 6 samples.

Results

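The genes described here are 9 regulators of the G1 to S transition and of the endocycle in Drosophila melanogaster: CycD, Cdk4, CycE, Cdk2, dap, E2f1, E2f2, Rbf and fzr. They were taken by symbol from the deposited table of raw read counts, in which all 9 were found among 17806 named genes. RNA was sequenced from GFP-positive intestinal progenitor cells, which are stem cells and their undifferentiated daughters, sorted from the dissected gastrointestinal tracts of adult females, with 100 flies pooled per replicate and held at 29 °C over 6 days. The genotypes, labelled Patr1 and esgTS, had 3 libraries each. The labels give only those names: Patr1 names the gene Patr-1, an activator of mRNA decapping found in P-bodies, and they do not say how the genotype alters it. In fly gut work esgTS names a temperature-controlled GAL4 driver system that is active in progenitors expressing the transcription factor gene esg. Whether the Patr1 flies carry the same driver is not stated in the labels. The series was designed to identify RNAs under the control of P-bodies, which are granules of untranslated mRNA and decay proteins in the cytoplasm.

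A dividing cell commits to DNA replication when cyclin-dependent kinases inactivate the retinoblastoma protein, which frees E2F transcription factors to switch on the genes of S phase. CycD with Cdk4 and CycE with Cdk2 supply the kinase activity, and the p21/p27-type inhibitor encoded by dap holds the CycE complex in check. In the fly, E2f1 encodes the activating E2F and E2f2 the repressing one, both of which bind DNA together with the product of Dp, and Rbf encodes the retinoblastoma protein that binds them. The endocycle alternates S phase with gaps and omits mitosis; it depends on pulses of CycE and on fzr, which encodes the Cdh1-type activator of the anaphase-promoting complex (APC/C) that clears mitotic cyclins. Intestinal stem cells divide by mitosis, whereas their enterocyte daughters endocycle and become polyploid, so both programmes meet in the progenitor population.

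The libraries held 2035676 to 2958607 reads over named genes, and the 9 genes together ranged from 41 reads (Cdk2 in Patr1 replicate 1) to 1650 reads (E2f1 in Patr1 replicate 2) per library. Patr-1 itself stood at 35.8, 32.5 and 39.3 CPM (a counts-per-million value) in Patr1 replicates 1, 2 and 3, against 206.7, 222.9 and 230.6 CPM in the esgTS replicates, in the direction that the label names. The progenitor gene esg was at 644.9 ± 82.7 CPM in Patr1 and 657.2 ± 41.9 CPM in esgTS (SD, n = 3 each), so the defining marker of the sorted cells was present in both genotypes. Nothing in the labels says that the replicates were collected separately, so p-values measure the spread between these libraries, which may be technical. In bulk RNA of this kind, fewer cells of a type and less RNA per cell cannot be told apart.

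Of the 9 genes, 3 were higher in Patr1 (E2f1, Rbf and fzr), 2 were lower (CycD and dap) and 4 did not pass the test (Cdk4, CycE, Cdk2 and E2f2). All 9 had enough reads to be tested with edgeR's quasi-likelihood test, and the threshold was a Benjamini-Hochberg adjusted p of 0.05 over the 7927 genes tested. The same test called 49.4% of all genes tested, 25.5% of them as higher and 23.9% as lower in Patr1, so 5 calls in 9 is a share near that of the whole transcriptome. DESeq2 called 29.8% of the genes it adjusted and 3 of the 9 (E2f1, Rbf and fzr), and the authors' deposited table calls 33.7% of its genes at the same threshold and 4 of the 9 (also dap). The libraries of the genotypes did not overlap for the same 5 genes, and that was so for 57.3% of all genes tested. The largest absolute log2 fold change among the 9 was 0.48 (fzr), against a median absolute log2 fold change of 0.35 over all genes tested and 0.65 over all genes called. The median log2 fold change of the 9 genes was 0.06, and that of all genes tested was 0.01.

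**Figure D1:**
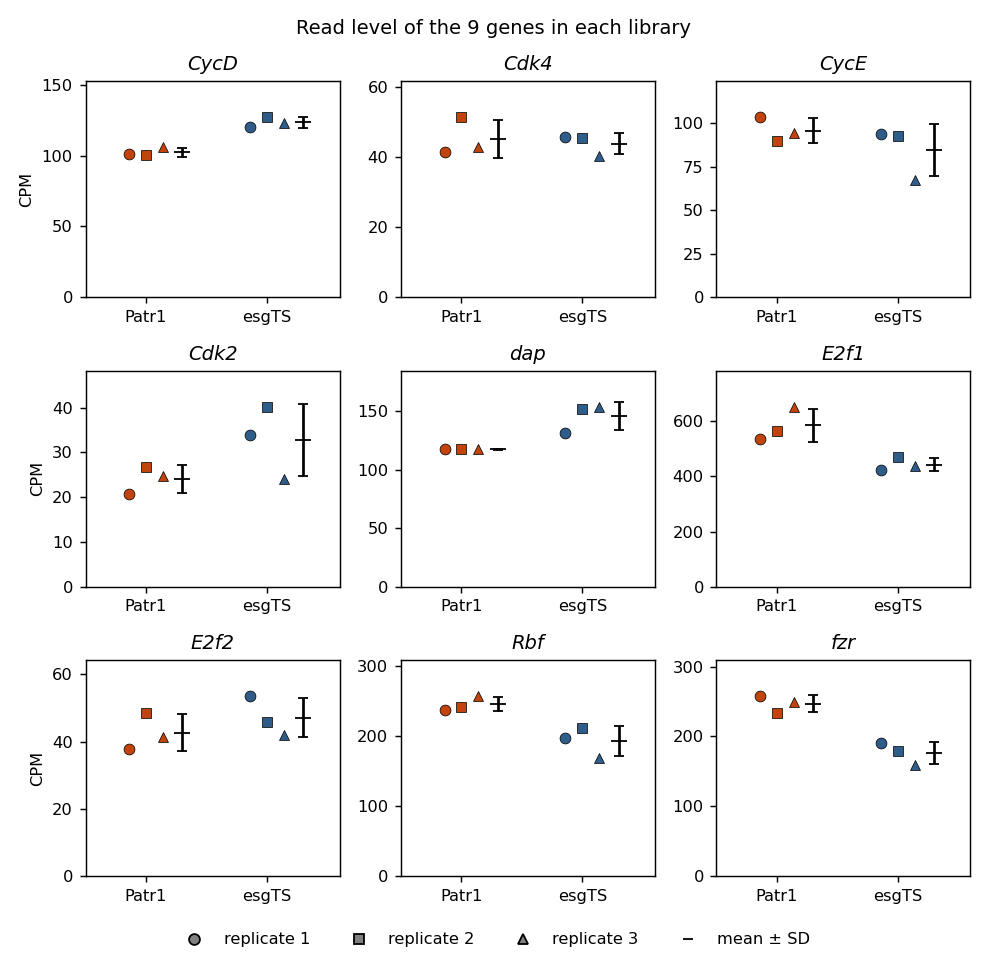
Counts-per-million values (CPM, vertical axes from 0) of each of the 9 genes in the 3 Patr1 libraries (left of each panel) and the 3 esgTS libraries (right), with marker shape for the replicate number and the mean ± SD beside the points. All Patr1 libraries lie above all esgTS libraries for E2f1, Rbf and fzr and below them for CycD and dap, and the ranges overlap for Cdk4, CycE, Cdk2 and E2f2.

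The G1 cyclin fell and its kinase partner did not pass the test. CycD, the D-type cyclin that works with Cdk4 in growth and in phosphorylating Rbf, stood at 100.9, 100.3 and 105.9 CPM in Patr1 replicates 1, 2 and 3, against 120.1, 127.2 and 122.9 CPM in the esgTS replicates. All 3 Patr1 libraries lay below all 3 esgTS libraries, and replicates within a genotype differed little, with a coefficient of variation of 3.02% in Patr1 and 2.91% in esgTS. The means were 102.4 ± 3.09 CPM in Patr1 and 123.4 ± 3.59 CPM in esgTS (SD, n = 3 each), a log2 fold change of -0.27 with a standard error of 0.08 (1.21-fold lower, edgeR adjusted p = 0.0126). This call depended on the method and on single libraries: the adjusted p was 0.106 with DESeq2 (its highest in 11 other settings, the lowest being 0.0086), and it was 0.0575 when Patr1 replicate 2 was left out and 0.0509 when esgTS replicate 2 was left out. The authors' deposited table gives CycD a log2 fold change of -0.29 and an adjusted p of 0.0702.

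Cdk4 stood at 41.4, 51.3 and 42.8 CPM in Patr1 replicates 1, 2 and 3, against 45.6, 45.5 and 40.2 CPM in the esgTS replicates. The highest and the second lowest of the 6 values were both from Patr1, and the genotypes overlapped. The log2 fold change was 0.06 with a 95% interval of -0.21 to 0.33 (edgeR adjusted p = 0.736), an interval of 0.862-fold to 1.25-fold, and its sign turned to -0.05 without Patr1 replicate 2.

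Neither gene of the S-phase kinase passed the test. CycE, the cyclin that starts replication in both cycle types, stood at 103.5, 89.7 and 94.0 CPM in Patr1 replicates 1, 2 and 3, against 93.5, 92.7 and 67.4 CPM in the esgTS replicates. The Patr1 values surrounded the 2 higher esgTS values, and esgTS replicate 3 was the lowest of all. The log2 fold change was 0.17 (95% interval -0.10 to 0.43, edgeR adjusted p = 0.275), and it was 0.04 without esgTS replicate 3. Cdk2, the catalytic partner of CycE, had the fewest reads of the 9 genes, with 41, 78 and 56 reads in Patr1 and 98, 121 and 63 in esgTS. Its levels were 20.7, 26.7 and 24.7 CPM in Patr1, against 33.8, 40.2 and 24.1 CPM in esgTS. Here too esgTS replicate 3 stood apart from the other esgTS libraries and lay within the Patr1 range.

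The Cdk2 log2 fold change was -0.44 with a 95% interval of -0.86 to -0.01 and an unadjusted p of 0.0437, and the edgeR adjusted p of 0.0807 did not pass. Without esgTS replicate 3 it was -0.61 with an edgeR adjusted p of 0.0130, and without the filter on low counts the adjusted p was 0.0290. Across 11 settings the adjusted p ran from 0.0130 to 0.321. In the reference annotation 43.9% of the exon bases of Cdk2 also lie in CG17267 on the opposite strand. The count table held 2 reads for CG17267, both in Patr1 replicate 2; the sources used here do not say how reads in the shared bases were assigned.

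The CDK inhibitor gene fell. The dap transcript stood at 117.6, 118.1 and 117.4 CPM in Patr1 replicates 1, 2 and 3, against 131.8, 151.8 and 154.0 CPM in the esgTS replicates. The 3 Patr1 libraries were nearly identical, with a coefficient of variation of 0.298%, and all lay below the lowest esgTS library. The means were 117.7 ± 0.351 CPM in Patr1 and 145.9 ± 12.2 CPM in esgTS (SD, n = 3 each), a log2 fold change of -0.31 ± 0.08 SE (1.24-fold lower, edgeR adjusted p = 0.00944). With DESeq2 over all named genes the adjusted p was 0.0529, the highest of 11 settings (range 0.00509 to 0.0529). The authors' deposited table gives dap a log2 fold change of -0.33 and an adjusted p of 0.0333.

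**Figure D2:**
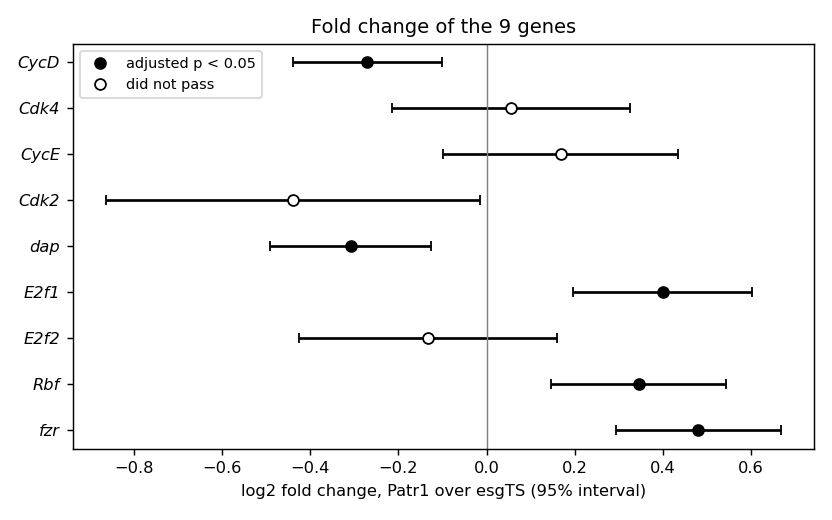
Log2 fold change of each gene, Patr1 over esgTS (horizontal axis), with its 95% interval from the edgeR fit; filled points passed an adjusted p of 0.05 and open points did not. The intervals of E2f1, Rbf and fzr lie above 0 and those of CycD and dap below it, and the widest interval belongs to Cdk2 (-0.86 to -0.01), which did not pass after adjustment.

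The activating E2F gene and the retinoblastoma gene rose together, and the repressing E2F gene did not pass the test. E2f1 stood at 535.4, 564.8 and 651.5 CPM in Patr1 replicates 1, 2 and 3, against 422.4, 467.7 and 437.0 CPM in the esgTS replicates. The lowest Patr1 library was above the highest esgTS library. The means were 583.9 ± 60.3 CPM in Patr1 and 442.4 ± 23.1 CPM in esgTS (SD, n = 3 each), a 1.32-fold rise (log2 0.40 ± 0.09 SE, edgeR adjusted p = 0.00373). The call held in all 11 settings tried, with adjusted p from 2.31e-04 to 0.0236.

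E2f2 stood at 37.8, 48.6 and 41.5 CPM in Patr1 replicates 1, 2 and 3, against 53.5, 45.8 and 42.1 CPM in the esgTS replicates. The genotypes overlapped, with the lowest value in Patr1 and the highest in esgTS. The log2 fold change was -0.13 with a 95% interval of -0.43 to 0.16 (edgeR adjusted p = 0.436). Leaving out single libraries moved this value. With Patr1 replicate 2 omitted it was -0.24, and with Patr1 replicate 1 omitted it was -0.06. Omitting esgTS replicate 3 gave -0.20, and omitting esgTS replicate 1 gave -0.04. In the annotation 19.9% of the exon bases of E2f2 lie in Mpp6 on the opposite strand, which had 23, 47 and 37 reads in Patr1 and 53, 57 and 37 in esgTS, so the read counts of E2f2 carry that uncertainty.

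Rbf, which encodes the retinoblastoma protein that binds both E2Fs, stood at 237.7, 241.0 and 256.5 CPM in Patr1 replicates 1, 2 and 3, against 197.8, 210.9 and 169.3 CPM in the esgTS replicates. All Patr1 libraries were above all esgTS libraries, and the esgTS libraries were the more spread, with a coefficient of variation of 11.1% against 4.09% in Patr1. The means were 245.0 ± 10.02 CPM in Patr1 and 192.7 ± 21.3 CPM in esgTS (SD, n = 3 each), a 1.27-fold rise (log2 0.35 ± 0.09 SE, edgeR adjusted p = 0.00768). This call also held in all 11 settings, with adjusted p from 0.00206 to 0.0361.

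The APC/C activator gene of the endocycle had the largest rise of the 9. In Patr1 replicates 1, 2 and 3 fzr stood at 257.4, 233.8 and 249.8 CPM, against 190.2, 179.7 and 159.7 CPM in the esgTS replicates. The gap between the lowest Patr1 and the highest esgTS library was wider than the spread within Patr1. The means were 247.0 ± 12.1 CPM in Patr1 and 176.5 ± 15.5 CPM in esgTS (SD, n = 3 each), a 1.40-fold rise (log2 0.48 ± 0.09 SE, edgeR adjusted p = 5.97e-04), with an adjusted p from 6.35e-06 to 0.00363 in 11 settings. The related gene fzy, which encodes the Cdc20-type activator of the APC/C used in mitosis, stood at 65.1, 59.9 and 51.2 CPM in Patr1 and 54.2, 66.4 and 56.3 CPM in esgTS, with a log2 fold change of -0.01 (95% interval -0.27 to 0.25, edgeR adjusted p = 0.95).

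Some of these genes carry microRNA genes within their bounds. The annotation places mir-11 and mir-998 inside E2f1 and mir-995 inside Cdk2, each on the strand of its host and outside the host's exons. The count table listed 0 reads for mir-11 in all 6 libraries, while mir-998 had 2, 5 and 8 reads in Patr1 and 3, 4 and 2 in esgTS. For mir-995 the table held 1 read, in Patr1 replicate 1. These counts are too few to compare the genotypes at the microRNA loci, and no test was made of them.

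Corrected for gene length and expressed as TPM (transcripts-per-million values), the 9 genes formed an upper and a lower tier. The upper tier in Patr1 was E2f1 at 242.8 ± 31.0 TPM, fzr at 236.9 ± 6.65, Rbf at 181.4 ± 12.3, dap at 124.6 ± 4.78 and CycD at 111.8 ± 6.01 TPM (SD, n = 3). In esgTS the same 5 genes were at 187.7 ± 13.6 (E2f1), 173.3 ± 17.9 (fzr), 145.8 ± 19.5 (Rbf), 157.7 ± 13.6 (dap) and 137.6 ± 6.74 TPM (CycD). The lower tier held E2f2 at 57.2 ± 9.15 TPM in Patr1 and 64.5 ± 8.42 TPM in esgTS, Cdk4 at 49.2 ± 7.30 and 48.7 ± 4.43 TPM, CycE at 50.7 ± 1.86 and 45.9 ± 8.91 TPM, and Cdk2 at 28.1 ± 4.53 and 39.1 ± 10.6 TPM, Patr1 before esgTS. Thus the transcripts of both kinases and of CycE stood below those of E2f1, Rbf, fzr, dap and CycD in each genotype.

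Within the upper tier, dap and Rbf changed places between the genotypes by their means. In Patr1, E2f1 and fzr overlapped and stood above Rbf, which stood above dap, which stood above CycD, with no overlap between the libraries of fzr and Rbf, Rbf and dap, or dap and CycD. In esgTS each gene of the upper tier overlapped the next one in the order E2f1, fzr, dap, Rbf and CycD. In both genotypes CycD and E2f2 did not overlap, which separated the tiers. Among the 7927 genes tested, the mean TPM over all libraries put E2f1 at the 84.9th percentile, fzr at 83.8, Rbf at 77.2, dap at 72.1 and CycD at 67.4, and the others between 23.5 (Cdk2) and 39.8 (E2f2).

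**Figure D3:**
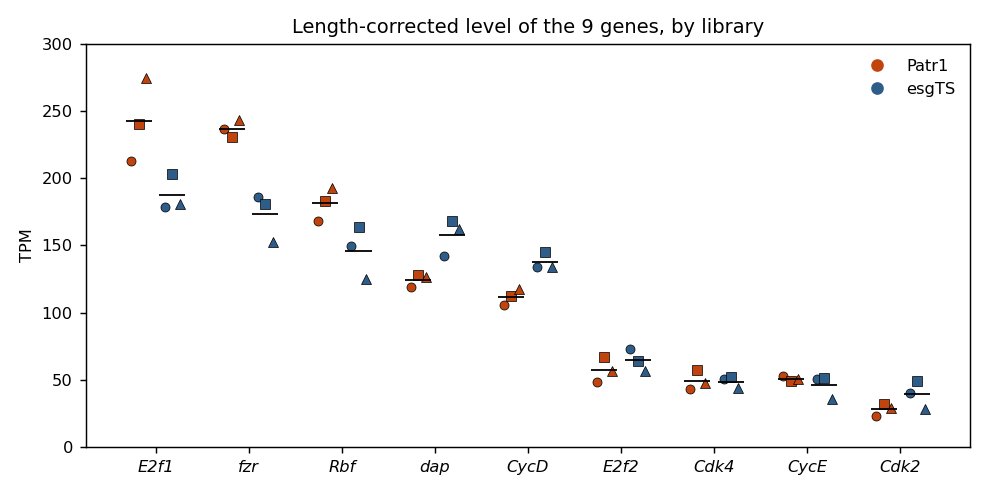
Length-corrected level (TPM, vertical axis from 0) of the 9 genes in each library, ordered by mean level, with Patr1 on the left and esgTS on the right of each gene, marker shape for the replicate number as in the plot of CPM, and a line at each mean. E2f1, fzr, Rbf, dap and CycD form an upper tier above 100 TPM in all libraries, and E2f2, Cdk4, CycE and Cdk2 a lower tier below 75 TPM.

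The balance between genes that act on the same step, or for fzr and fzy on the same complex, was compared within each library. This removes the scaling between libraries. The ratio of CycE to dap, cyclin to inhibitor, was 0.441, 0.381 and 0.401 in Patr1 replicates 1, 2 and 3, against 0.356, 0.306 and 0.219 in the esgTS replicates, from TPM. The ratio of E2f1 to E2f2, activator to repressor, was 4.39, 3.61 and 4.87 in Patr1 and 2.45, 3.17 and 3.22 in esgTS. Both ratios were higher in every Patr1 library than in any esgTS library, by 0.50 and 0.54 on the log2 scale. By themselves CycE and E2f2 did not pass the edgeR test, and 19.9% of the exon bases of E2f2 lie in Mpp6.

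The ratio of CycE to Cdk2 was 2.28, 1.53 and 1.73 in Patr1, against 1.26, 1.05 and 1.27 in esgTS, and that of fzr to fzy was 2.83, 2.79 and 3.49, against 2.51, 1.94 and 2.03. These were also apart, by 0.61 and 0.49 on the log2 scale. The ratio to Cdk2 carries the limits of that gene, with 41 to 121 reads per library and 43.9% of its exon bases in CG17267. The ratio of CycD to Cdk4 was lower, at 2.45, 1.96 and 2.48 in Patr1 and 2.65, 2.81 and 3.07 in esgTS, a log2 difference of -0.31. The ratio of E2f1 to Rbf did not separate the genotypes, at 1.26, 1.31 and 1.43 in Patr1 against 1.198, 1.24 and 1.45 in esgTS (log2 difference 0.04, exact permutation p = 0.7).

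For each of the 5 ratios that did not overlap, the two-sided exact permutation test over 3 against 3 libraries gave p = 0.1, the smallest it can give, and 0.12 after Benjamini-Hochberg adjustment over the 6 ratios. No ratio can therefore pass 0.05 by this test. Leaving out 1 library at a time kept the sign of these 5 differences, but the log2 difference of CycE to dap was 0.30 without esgTS replicate 3 and that of CycD to Cdk4 was -0.20 without Patr1 replicate 2.

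**Figure D4:**
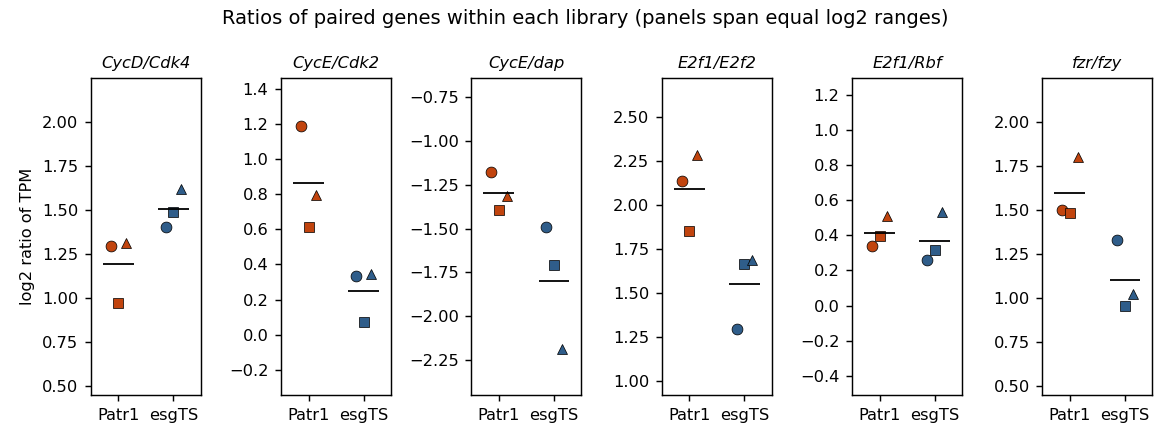
Log2 ratio of TPM for 6 pairs of genes in each library, Patr1 on the left and esgTS on the right of each panel, with marker shape for the replicate number and a line at each mean; all panels span equal log2 ranges. The genotypes do not overlap for any pair except E2f1 to Rbf, and CycD to Cdk4 is the one pair that is lower in Patr1.

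Other genes of the pathway were described from lists of known regulators. Each list was read against all genes tested, of which edgeR called 49.4% (25.5% higher and 23.9% lower). DESeq2 called 29.8% of the genes it adjusted. Of 8 genes for E2F partners and the dREAM complex, a repressive assembly of Rbf-family proteins, E2f2, Dp and Myb-interacting proteins, 0 rose, 4 fell and 4 did not pass the edgeR test. The share called, 50%, was near that of all genes. None rose with DESeq2 either, and no member had an unadjusted rise past 0.05. Dp, the shared DNA-binding partner of both E2Fs, stood at 206.4, 222.5 and 226.0 CPM in Patr1 and 277.8, 298.3 and 292.2 CPM in esgTS (log2 -0.41 ± 0.08 SE, edgeR adjusted p = 9.51e-04), opposite in direction to E2f1. By length-corrected level, Dp was at 183.0 ± 15.2 TPM in Patr1 and 247.6 ± 12.5 TPM in esgTS.

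Myb, the DNA-binding activator of the complex, fell by 0.36 on the log2 scale (238.3 ± 3.66 CPM in Patr1, 306.8 ± 7.82 CPM in esgTS, edgeR adjusted p = 0.00143), though 99.1% of its exon bases also lie in the annotated gene CG46440. The scaffold gene mip130 fell by 0.32 (edgeR adjusted p = 0.0106) and lin-52 by 0.58, and 47.9% of the exon bases of lin-52 are shared with CG15772. The number of falls in this list was 2 with DESeq2 and 2 without esgTS replicate 2. The second retinoblastoma-family gene, Rbf2, stood at 25.7 ± 6.51 TPM in Patr1 and 35.5 ± 5.37 TPM in esgTS and did not pass (edgeR adjusted p = 0.0586).

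Among genes of the ubiquitin ligases known to limit the CycE, dap and E2f1 proteins, listed with Nedd8 and CSN5, those called all rose. Of 10 genes in this SCF and CRL4 list, 7 rose, 0 fell and 3 did not pass (70% called), with a list median log2 fold change of 0.32. The CRL4 genes pic, the fly DDB1, and Cul4 were at 443.7 ± 25.0 and 271.1 ± 9.53 CPM in Patr1, against 282.6 ± 20.6 and 205.5 ± 8.22 CPM in esgTS (log2 0.65 and 0.40, edgeR adjusted p = 5.67e-05 and 9.43e-04). The substrate receptor gene Skp2 rose 1.54-fold (log2 0.62 ± 0.13 SE, edgeR adjusted p = 0.00176). Roc1a, l(2)dtl, Nedd8 and CSN5 rose by log2 0.27 to 0.46, whereas ago, whose product brings CycE to its ligase, was at a log2 fold change of -0.12, Cul1 at 0.08 and SkpA at 0.03. There were 4 rises with DESeq2, without Patr1 replicate 2 and without esgTS replicate 1. No member fell with DESeq2 or at an unadjusted p of 0.05.

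Of 5 genes for the CDK-activating kinase and CDK-binding subunits, 3 rose, 1 fell and 1 did not pass; the rises, all in genes of the CDK-activating kinase, numbered 2 with DESeq2, with the replicate block, with no filter, with no composition factor, and when Patr1 replicate 3 or any esgTS replicate was left out. Cdk7 stood at 92.9, 92.1 and 91.8 CPM in Patr1 and 64.2, 61.8 and 66.3 CPM in esgTS (1.44-fold, edgeR adjusted p = 3.22e-04), CycH was 1.39-fold higher (edgeR adjusted p = 0.00297), and Mat1 passed narrowly, higher by log2 0.33 (edgeR adjusted p = 0.0429). Of the CDK-binding subunit genes, Cks30A fell 2.03-fold, at 22.2 ± 1.37 CPM in Patr1 and 44.6 ± 7.51 CPM in esgTS (edgeR adjusted p = 2.13e-04), and Cks85A, which shares 73.7% of its exon bases with CG8112, did not pass.

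Genes that control the mitotic kinase moved in both directions, with 3 of 11 higher, 3 lower and 5 not past the test, and 4 of them changed by more than fzr did. The share called in this list, 54.5%, was near that of all genes. The tribbles gene trbl, whose product promotes the breakdown of the Cdc25 phosphatase encoded by stg, rose 3.42-fold, at 160.5, 156.1 and 179.6 CPM in Patr1 and 61.8, 45.5 and 36.8 CPM in esgTS (edgeR adjusted p = 8.98e-07). The gene stg rose beside it, by log2 2.31, and the kinase gene Wee1 by 0.34. The B-type cyclin gene CycB3 fell by 1.41 on the log2 scale, with twe at a log2 fold change of -0.97 and Rca1 at -0.40. The mitotic cyclin genes CycA and CycB, whose proteins the fzr product helps to clear, had log2 fold changes of 0.10 and -0.09, and Cdk1 of -0.04, with 95% intervals within -0.28 and 0.26, and none of the 3 passed. The falls numbered 1 with DESeq2 and without esgTS replicate 1.

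Of 9 tested genes for subunits of the APC/C, which the fzr product activates, 6 rose, 0 fell and 3 did not pass (66.7% called), with a median log2 fold change of 0.51. The scaffold gene shtd stood at 349.7, 356.3 and 391.5 CPM in Patr1 and 255.4, 252.5 and 258.1 CPM in esgTS (1.43-fold, edgeR adjusted p = 1.65e-04). Cdc16 rose 1.57-fold (edgeR adjusted p = 3.90e-04) and APC4 1.42-fold (edgeR adjusted p = 0.00485), and Cdc27, APC7 and APC10 were also higher, though 21.3% of the exon bases of APC10 lie in CG4853. The number of rises was 5 with DESeq2, and no member fell with DESeq2 or at an unadjusted p of 0.05. The tenth listed gene, lmgA, had 0 reads in all libraries; its exon bases all lie in lmgB as well.

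Of 19 S-phase genes known to be under E2F control, 7 rose, 2 fell and 10 did not pass, a share of calls near that of all genes. The ribonucleotide reductase genes RnrL and RnrS, which supply deoxynucleotides, rose 1.71-fold and 1.38-fold (edgeR adjusted p = 3.19e-05 and 9.67e-04). PCNA, the sliding clamp, stood at 134.8 ± 4.49 CPM in Patr1 and 102.8 ± 4.53 CPM in esgTS (1.31-fold, edgeR adjusted p = 0.0015), and Orc1, Ts, DNApol-alpha50 and dpa were also higher. CDC45L and DNApol-alpha180 were lower, by log2 -0.32 and -0.24. Of the replicative helicase genes, Mcm2, Mcm3, Mcm5, Mcm6 and Mcm7 did not pass and lay between -0.05 and 0.16 on the log2 scale, so dpa was the single Mcm gene called; 81.7% of the exon bases of Mcm7 lie in asRNA:CR45871. Only 1 member fell once Patr1 replicate 1 was left out, and 0 fell with DESeq2 or once Patr1 replicate 2, esgTS replicate 1 or esgTS replicate 2 was left out.

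**Figure D5:**
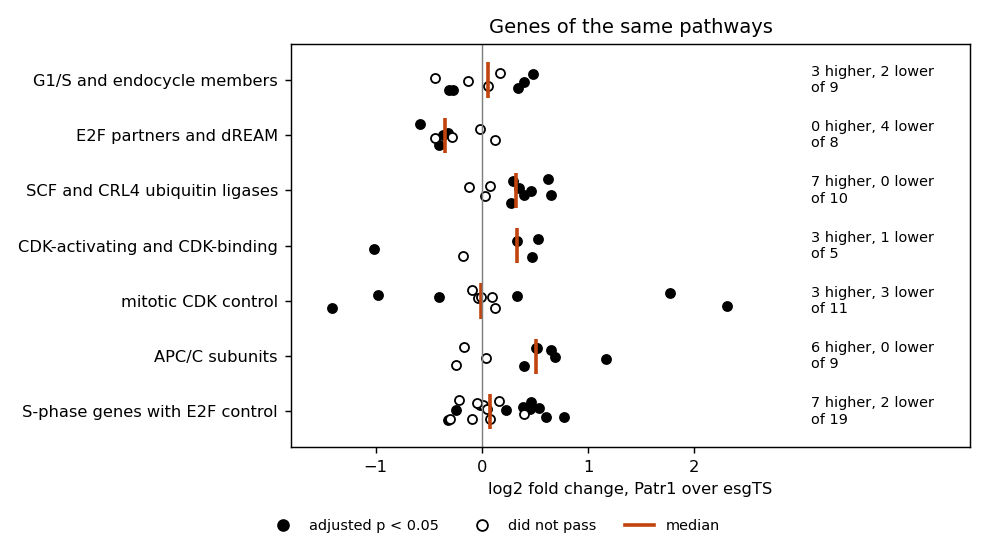
Log2 fold change, Patr1 over esgTS (horizontal axis), of every tested gene in the 9 genes and in 6 lists of related genes, with filled points for an adjusted p under 0.05, open points for genes that did not pass, a line at each list's median and the counts at the right. The 9 genes lie on both sides of 0, the APC/C and ubiquitin ligase genes called all lie above it, and the dREAM genes called all lie below it.

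For each of the 5 genes called, the tested genes with the most similar course over the 6 libraries were found by the root mean square difference of mean-centred log2 CPM, among 6967 genes with a mean log2 CPM of at least 3. Closest to CycD were the mRNA export receptor gene sbr (difference 0.02) and Hers (0.02). Closest to dap were 4E-T, which encodes an eIF4E-binding protein of P-bodies (0.03), and Galt (0.03). E2f1 was matched most nearly by Taf10 (0.03) and the acetyltransferase gene san (0.03), Rbf by CG1603 (0.04) and Der-2 (0.04), and fzr by janA (0.03) and CG1703 (0.05). Many genes share the contrast between the genotypes, so this likeness over 6 libraries is a description.

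Markers of other cell types moved between the same libraries, and their part in these differences was not tested. Of 9 enterocyte genes, which mark the endocycling lineage, 7 rose and 2 fell, and their summed level was 1719 to 1736 CPM in Patr1 against 1064 to 1144 CPM in esgTS. Much of that difference was bbg, at 566.3 ± 20.7 CPM in Patr1 and 113.0 ± 11.1 CPM in esgTS. The 2 falls were Myo31DF (336.2 ± 20.9 CPM in Patr1, 486.2 ± 29.9 CPM in esgTS) and Hnf4 (94.6 ± 11.7 and 219.2 ± 19.6 CPM). Of 9 progenitor genes, 4 rose, 4 fell and esg did not pass. Their sums, 4860 to 5642 CPM in Patr1 and 5311 to 5773 CPM in esgTS, overlapped while members moved in opposite directions. By log2 fold change, spdo (0.69), Dl (0.46), Sox21a (0.42) and N (0.40) were higher. Lower were E(spl)mgamma-HLH (-1.22), zfh2 (-0.92), klu (-0.62) and E(spl)mbeta-HLH (-0.61). The largest of these by level, zfh2, was at 927.0 ± 136.8 CPM in Patr1 and 1757.6 ± 128.6 CPM in esgTS. The sums were 211.0 to 367.4 CPM in Patr1 and 327.9 to 386.8 CPM in esgTS for 7 enteroendocrine genes (2 higher, 1 lower), and 110.5 to 135.1 CPM in Patr1 and 33.8 to 35.2 CPM in esgTS for 6 visceral muscle genes (2 higher, 0 lower), whose defining myosin gene Mhc ran from 5.82 to 11.03 CPM in Patr1 and from 5.87 to 7.64 CPM in esgTS. For 6 hemocyte genes (2 higher, 1 lower) the sums were 159.0 to 221.1 CPM in Patr1 and 90.1 to 107.6 CPM in esgTS, with NimC1 and He at 0 reads in every library. Within that sum the type IV collagen genes Col4a1 and vkg were at 78.1 ± 21.1 and 46.7 ± 13.6 CPM in Patr1, against 0.835 ± 0.273 and 1.51 ± 0.316 CPM in esgTS, and the GATA factor gene srp was at 57.3 ± 1.72 CPM in Patr1, against 93.8 ± 9.97 CPM in esgTS. For 9 germline and follicle genes (2 higher, 0 lower) the sums were 299.3 to 813.0 CPM in Patr1 and 160.5 to 213.3 CPM in esgTS, with nos, osk, bam, Vm26Aa and the 3 yolk protein genes below the expression filter. Most of each sum was piwi, at 784.7, 684.6 and 266.6 CPM in Patr1 replicates 1, 2 and 3, against 152.2, 205.0 and 203.4 CPM in the esgTS replicates. The other gene called, vas, was at 16.1 ± 3.14 CPM in Patr1 and 0.464 ± 0.174 CPM in esgTS. The remaining lists gave 28.1 to 28.7 CPM in Patr1 and 11.4 to 12.6 CPM in esgTS for 4 Malpighian tubule genes (2 higher, 0 lower), 173.2 to 203.9 CPM in Patr1 and 200.3 to 222.2 CPM in esgTS for 3 trachea and neuron genes (1 higher, 2 lower), and 10.6 to 13.2 CPM in Patr1 and 10.3 to 22.3 CPM in esgTS for 3 fat body genes (0 called, with Lsp2 at 0 reads).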

How the data were processed

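The deposited raw counts, reads per gene for 6 libraries with a gene length in bases, were used as the authors made them. Tools listed in the submitters' processing notes, with neither order nor settings, are STAR 2.7.3a, featureCounts of Subread 2.0.0, cutadapt 2.9, SAMtools 1.10 and DESeq2. The sources used here do not give the genome build, annotation or strand setting, and coordinates were therefore left out. The authors' deposited comparison table holds normalized values (a signal, the raw count times 1 constant per library), log2 fold changes, Wald statistics (a score) and p-values, per the file headers; it was used only where named.

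Library totals were 2035676 to 2958607 reads, and 1 row with no gene name (at most 0.00296% of reads) was left out. Patr1 was tested against esgTS by edgeR 4.0.16 under R 4.3.3 with the quasi-likelihood test (TMM factors, default expression filter by group, no block) over 7927 genes, with Benjamini-Hochberg adjustment at 0.05; intervals are from that fit. CPM use TMM-scaled library sizes, and TPM use the deposited lengths. Replicates were not copies of one library: the chi-square statistic over its degrees of freedom was 2.45 to 4.34 for pairs of 1 genotype. The code was tested on simulated data, in 3 sets with 200 genes changed by known folds. The test recovered 61.3% of 1.5-fold and 80.7% of 2-fold changes, and 8.5% of its calls were false. The smallest fold simulated, 1.5, was larger than that of any of the 9 genes (at most 1.40, fzr). Settings tried were other size factors, no composition factor, no filter, DESeq2 1.42.0, a replicate block and leaving out each library. Overlaps come from the BDGP6 annotation of Ensembl, whose exon lengths equal the deposited lengths for 9 of 9 genes; they are mentioned where at least 20% of a gene's exon bases are shared, and for E2f2. All 128 listed symbols were matched, 4 by another name.

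The 9 genes, lists and tests were chosen with earlier results of these data known. Named genes are the 9; in each pathway list up to 3 genes with the smallest p past the threshold; for each called gene the 2 most similar genes; and Patr-1. Others were named beside their list's counts after their values were seen.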

Additional observations from a re-analysis of the deposited data

How the results depend on the processing

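E2f1, Rbf and fzr stayed past the threshold in all 11 settings tried, and so did the number of risen genes among the 9, which was 3 throughout. The falls depended on the method. DESeq2 gave log2 fold changes of -0.27 for CycD (adjusted p = 0.106) and -0.31 for dap (adjusted p = 0.0529), so 0 of the 9 fell past the threshold with it, and with no filter Cdk2 passed at -0.45. Over the 6 settings that leave out 1 library, CycD ran from -0.29 to -0.25, Cdk4 from -0.053 (without Patr1 replicate 2) to 0.12, Cdk2 from -0.61 to -0.27, CycE from 0.04 to 0.24, E2f2 from -0.24 to -0.04, and the number of falls from 1 to 3. The log2 ratio difference of E2f1 to Rbf ran from -0.00999 to 0.127, and so had no fixed sign. With DESeq2 there were 2 falls among the dREAM genes, 4 rises among the ubiquitin ligase genes, 1 fall among the mitotic kinase genes and 0 among the S-phase genes; leaving out 1 library gave 2 to 5, 4 to 6, 1 to 3 and 0 to 3. Calls over all genes shifted in the same settings. From 2018 rises and 1896 falls in the main fit, they came to 1624 and 1441 with DESeq2. Leaving out 1 library gave 1675 to 2072 rises and 1583 to 1919 falls over all genes. The causes of these shifts were not tested, and a fit that leaves 1 out also rests on fewer libraries.

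The numbers shared by the replicates gave no clear sign of a pairing of the libraries. Deviations from the genotype means correlated at 0.05, 0.20 and -0.04 for the 3 same-numbered pairs, and from -0.30 to 0.21 for the other pairs. With 3 libraries per genotype the deviations are bound to each other, so these correlations cannot exclude a pairing. With the replicate number as a block, 3901 genes were called instead of 3914, with 1999 rises and 1902 falls, and 3 rises and 2 falls among the 9 genes; CycD was at -0.27, Cdk2 at -0.44 and dap at -0.31. The counts limit Cdk2 most, with 41 to 121 reads per library.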
